A study of Mus musculus with 2 samples.

Results

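Cdk5rap1, 1 of the 32285 genes counted, was followed across the cell types of the spleen in mice with chronic anaemia. It was selected by its symbol because its level was lower in the phenylhydrazine library than in the bleeding library in every large cell class, so the ratios between these libraries are given as a description of what it was chosen for. The gene (ENSMUSG00000027487) lies on the minus strand of chromosome 2 in build GRCm38, at chr2:154335380-154373010. C57BL/6 mice were made anaemic for 1 month, with a PHZ injection every 3 days (phenylhydrazine, written PHZ, which destroys red cells) or with bleeding every 3 days. Live spleen cells were profiled by droplet-based 3′ single-cell RNA sequencing, as 1 chronic PHZ library and 1 chronic bleeding library. The labels do not give the age, the sex or the number of mice behind a library, and mice without anaemia were not analysed here. Since each treatment is a sole library, no test between the treatments was made, and treatment, mouse and library effects cannot be told apart.

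Cdk5rap1 encodes a mitochondrial enzyme of the radical SAM family that carries iron-sulphur clusters. It adds a methylthio group to an adenosine beside the anticodon of several mitochondrial transfer RNAs (tRNAs), after Trit1 has placed an isopentenyl group on that base, and the modification helps mitochondrial ribosomes read codons accurately. Cdkal1, a related methylthiotransferase, acts on a cytosolic tRNA. The gene was named for binding an activator of the kinase Cdk5, and in C57BL/6 mice it is known to carry a retrotransposon of the IAP class whose DNA methylation differs between genetically identical animals; methylation was not measured here. Red cell precursors depend on mitochondria for haem and iron-sulphur cluster synthesis until they clear these organelles as they mature.

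The coding stretch with the 3 cysteine codons that hold the enzyme's radical SAM iron-sulphur cluster is shown because it separates the long from the short annotated transcripts, which share the single count per gene used below. In GENCODE M21, transcripts of 14 and of 15 exons each encode 588 codons. The stretch lies at chr2:154354162-154354203 on the minus strand, in exon 7 of the 14-exon transcript, and capitals mark cysteine codons 257, 261 and 264. The corresponding stretch of the 16-exon transcript of Cdkal1 on chromosome 13, which spans an exon junction, is set beside it with cysteine codons 213, 217 and 220 in capitals.
Cdk5rap1: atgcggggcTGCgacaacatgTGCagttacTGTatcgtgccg
Cdkal1: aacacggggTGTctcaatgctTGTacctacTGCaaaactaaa
The spacing of the cysteine codons is the same in these paralogs, with 3 codons between the first pair and 2 between the second. A short coding transcript has 6 exons and 190 codons, and it ends before this stretch. Its last exon, chr2:154361250-154361865, lies inside intron 5 of the 14-exon transcript, and its 3′ end is 25864 bases from that of the long form. Counts from 3′ libraries sum over all these ends, so the values below do not say which transcript was present.

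The PHZ matrix held 128130213 unique molecular identifiers (UMIs, counted RNA molecules), of which 598 were Cdk5rap1, and the bleeding matrix held 145260780, of which 3458 were Cdk5rap1. After filtering there were 6113 PHZ cells with a median of 12242 UMIs and 8953 bleeding cells with a median of 8045. These cells held 77.1% of the PHZ and 80.5% of the bleeding library's Cdk5rap1 UMIs. The libraries shared 15 cell barcodes, which are 0.245% of PHZ and 0.168% of bleeding cells. Haemoglobin genes took 44.4% and 32.3% of all UMIs in cells, so levels are given as counts per 1e6 UMIs without haemoglobin genes (CPM). Cell classes were named from fixed marker genes and are written with "-like". Brackets hold 95% intervals, which cover counting error only. They are exact for levels, ratios and shares, and approximate for differences between levels.

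Over all cells Cdk5rap1 stood at 9.54 CPM (8.69 to 10.4) in the PHZ library, from 461 UMIs, and at 44.8 CPM (43.1 to 46.5) in the bleeding library, from 2782 UMIs. The PHZ level was 0.213 of the bleeding level (0.193 to 0.235). Without erythroid-like cells the levels were 10.7 and 45.5 CPM, a ratio of 0.235 (0.205 to 0.268), so the gap was present in the pooled lymphoid and myeloid cells as well.

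Among lymphoid cells, B cell-like cells held 13.9 CPM (11.7 to 16.5) in the PHZ library, from 137 UMIs in 1541 cells. In the bleeding library they held 47.1 CPM (44.4 to 49.997), from 1110 UMIs in 3499 cells, and the ratio was 0.296 (0.246 to 0.353). T cell-like cells held 15.5 CPM (11.9 to 19.8) in 463 PHZ cells and 48.4 CPM (45.0 to 52.0) in 1962 bleeding cells, a ratio of 0.320 (0.243 to 0.415). B and T cells are the lymphocytes of the white pulp, and their intervals did not overlap between the libraries. NK cell-like cells held 18.1 CPM (7.80 to 35.6), from only 8 UMIs, against 57.9 CPM (44.9 to 73.6), from 67 UMIs. Plasma cell-like cells gave 0 UMIs in 8 PHZ cells, which allows up to 12.7 CPM, and 58 UMIs or 23.7 CPM (18.0 to 30.6) in 95 bleeding cells.

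In the bleeding library B cell-like and T cell-like cells differed by less than their counting error, and the same was true in the PHZ library. Of all genes with at least 20 UMIs over both libraries, 2.11% of 12990 in B cell-like cells and 2.38% of 12168 in T cell-like cells had a ratio at or under 0.5. Cdk5rap1 was placed 98th and 110th from the lowest ratio in these classes. As the gene was chosen on this contrast, nothing is read from these places.

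Among myeloid cells, neutrophil-like cells held 3.25 CPM (1.73 to 5.55) in 294 PHZ cells, from 13 UMIs, and 26.7 CPM (18.0 to 38.2) in 111 bleeding cells, from 30 UMIs. The ratio was 0.122 (0.0582 to 0.240), in a class where 3.48% of 9105 genes were at or under 0.5, and with each cell given the same weight it was 0.0582. Neutrophils are short-lived cells with few mitochondria. In their more mature cluster Cdk5rap1 was 1.31 CPM against 63.1 CPM, from 1 and 16 UMIs, and in the immature cluster 3.71 against 16.1 CPM, from 12 and 14 UMIs. The mature cluster's interval of the ratio (0.00049 to 0.133) overlapped that of the immature cluster (0.0972 to 0.536).

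Monocyte or macrophage-like cells held 4.63 CPM (2.12 to 8.79) in the PHZ library, from 9 UMIs, and 34.1 CPM (26.0 to 43.9) in the bleeding library, from 60 UMIs, a ratio of 0.136 (0.0593 to 0.275), which was 0.218 with haemoglobin UMIs in the denominator. This class is mostly monocyte-like in the PHZ library (154 of 171 cells) and mostly red pulp macrophage-like in the bleeding library (212 of 283 cells), and 12.6% of its 9717 genes were at or under 0.5. Within monocyte-like cells alone the levels were 4.73 CPM (2.16 to 8.97) and 34.8 CPM (22.7 to 51.0). Red pulp macrophages, which clear old red cells and recycle their iron, gave 0 UMIs in 17 PHZ cells, a number that allows up to 76.0 CPM. In the bleeding library they held 33.6 CPM (23.2 to 46.9), so a difference was not detectable in them at this depth. Dendritic cell-like cells, which present antigen, held 6.23 CPM (2.99 to 11.4) against 32.9 CPM (26.2 to 40.9).

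**Figure D1:**
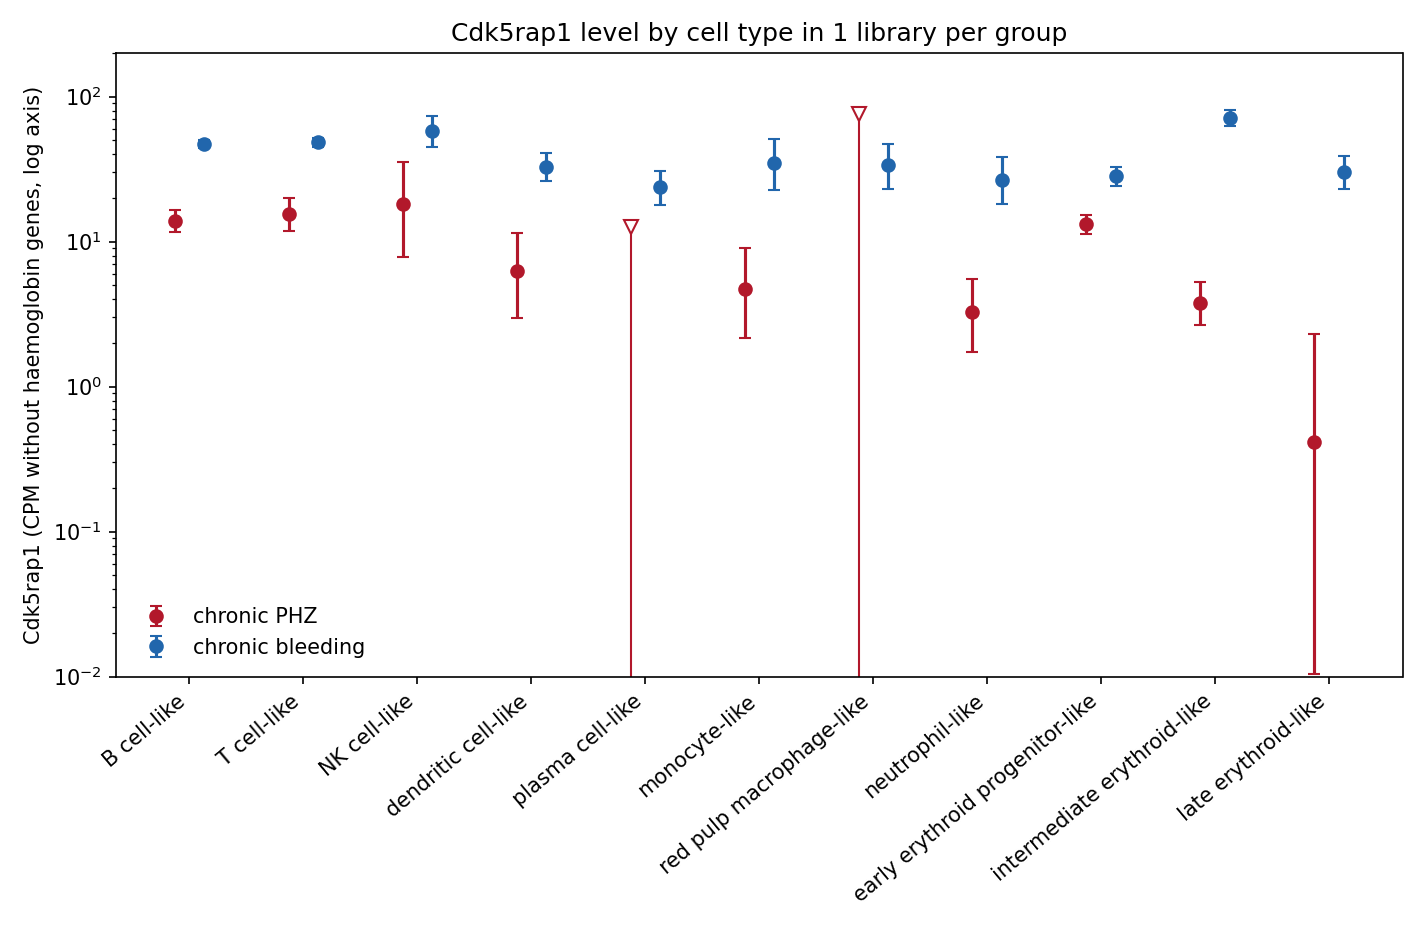
Cdk5rap1 level in CPM without haemoglobin genes (log axis) by cell type, with 1 library per group; bars are exact 95% Poisson intervals, and open triangles mark the level that 0 UMIs allow (12.7 CPM in plasma cell-like and 76.0 CPM in red pulp macrophage-like PHZ cells). The bleeding levels lie between 23.7 and 71.0 CPM, while the PHZ levels with at least 1 UMI run from 0.414 CPM in late erythroid-like to 18.1 CPM in NK cell-like cells; basophil or mast cell-like cells, with 1 UMI in all, are not plotted.

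The order of the levels differed between the libraries. In the bleeding library intermediate erythroid-like cells stood at the top with 71.0 CPM (62.4 to 80.4), followed by NK cell-like, T cell-like and B cell-like cells. In the PHZ library intermediate erythroid-like cells held 3.79 CPM (2.64 to 5.27), below NK cell-like, T cell-like and B cell-like cells. Every pair of neighbours in either order had overlapping intervals, so the places of neighbours in the order are within counting error. Basophil or mast cell-like cells gave 1 UMI in 6 PHZ cells and 0 in 9 bleeding cells, which is too few to place them. The difference in level, bleeding minus PHZ, was 33.2 CPM (29.5 to 36.8) in B cell-like, 32.9 CPM (27.4 to 38.0) in T cell-like and 33.1 CPM (29.3 to 37.1) in erythroid-like cells. It was 23.5 CPM (14.5 to 35.0) in neutrophil-like and 29.4 CPM (20.4 to 39.6) in monocyte or macrophage-like cells, so these 5 intervals overlapped although the ratios ranged from 0.122 to 0.320. The erythroid-like value pools unlike stages. The stage levels and differences here are for the main setting, and the borders of the stages moved with cell filters and resolution, as given below. The difference was 15.2 CPM (10.6 to 20.2) in early progenitor-like, 67.2 CPM (58.5 to 76.7) in intermediate and 29.7 CPM (22.3 to 38.4) in late cells. The intervals of the early and intermediate stages overlapped neither each other nor that of B cell-like cells.

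In erythroid-like cells as a whole, Cdk5rap1 stood at 8.45 CPM (7.34 to 9.67) in 3194 PHZ cells and at 41.5 CPM (37.9 to 45.4) in 2340 bleeding cells, a ratio of 0.203 (0.172 to 0.240). Here 7.41% of 12017 genes were at or under 0.5. The ratio differed between stages of maturation. Early erythroid progenitor-like cells held 13.2 CPM (11.3 to 15.3), from 174 UMIs, against 28.4 CPM (24.3 to 33.0), from 172 UMIs, a ratio of 0.464 (0.373 to 0.576) beside 4.41% of genes at or under 0.5. Intermediate cells had a ratio of 0.0534 (0.0363 to 0.0763), from 35 and 247 UMIs, beside 5.41% of genes. Late cells had 1 UMI among 1623 PHZ cells and 60 UMIs among 1614 bleeding cells, 0.414 CPM (0.0105 to 2.31) against 30.1 CPM (23.0 to 38.8), beside 15.1% of genes at or under 0.5. The nearly equal UMI counts of the early cells came from unlike totals, 13216251 PHZ and 6059251 bleeding UMIs without haemoglobin genes. The PHZ level was thus already the lower one at this stage. Most of these UMIs came from the deep cluster 15, with 166 UMIs in 184 PHZ cells and 157 in 83 bleeding cells. Its ratio was 0.485 (0.388 to 0.607). The shallower cluster 16 held 8 UMIs in 158 PHZ cells and 15 in 75 bleeding cells, a ratio of 0.240 (0.0880 to 0.602). The intermediate ratio was between 0.132 and 0.139 under 4 other cell filters or resolutions, which drew the border between stages elsewhere. With each cell given the same weight the ratio was 0.041 in all erythroid-like cells, 0.192 in early progenitor-like and 0.0175 in intermediate cells.

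Maturation was therefore also followed without stage names, by the share of haemoglobin genes among the UMIs of each erythroid-like cell, which climbs as precursors fill with haemoglobin. In cells with 0 to 5% haemoglobin the level was 12.3 CPM (10.2 to 14.8) in the PHZ library and 27.1 CPM (22.9 to 31.9) in the bleeding library. At 5 to 20% it was 13.6 and 39.4 CPM, and at 20 to 50% it was 5.13 and 42.5 CPM. In the next range the PHZ level was lower and the bleeding level higher than at 20 to 50%. At 50 to 80% haemoglobin the PHZ cells held 2.29 CPM (1.15 to 4.11), from 11 UMIs in 898 cells, and the bleeding cells held 92.6 CPM (79.1 to 108), from 168 UMIs in 390 cells. At 80 to 90% there was 1 UMI in 535 PHZ cells and 37 in 326 bleeding cells, which is 0.891 and 61.9 CPM. At 90 to 100% there was 1 in 1144 PHZ cells and 39 in 1348 bleeding cells, which is 0.674 and 25.1 CPM, so the bleeding level was past its peak in these last ranges. The ratio thus went from 0.456 (0.355 to 0.584) in the lowest range to 0.0248 (0.0121 to 0.0455) at 50 to 80% haemoglobin, with intervals that did not overlap.

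The median depth per cell, in UMIs without haemoglobin, was 63397 in the PHZ and 62461 in the bleeding library at 0 to 5%, 6219 and 3541 at 5 to 20%, 11343 and 7223 at 20 to 50%, and 4547 and 3753 at 50 to 80%. The PHZ cells were thus the deeper ones in each of these ranges. Between the first and the last of them the log2 ratio of Cdk5rap1 moved by -4.20. The median change was -0.03 over 6962 genes with at least 20 UMIs over both libraries in each of these 2 ranges. Cdk5rap1 passed this minimum at 50 to 80% mainly through the bleeding library, with 168 UMIs beside 11 in the PHZ library. A larger drop was found for 1 gene, Thsd7b, which was named after its value was seen. As Cdk5rap1 was chosen on the contrast between the libraries, nothing is read from its place. The 24 measured genes of the list of mitochondrial tRNA modification and processing, which also holds Cdkal1, summed, went from 996 CPM in the PHZ and 1067 CPM in the bleeding library at 0 to 5% to 120 and 122 CPM at 50 to 80%. Between these ranges that list thus declined in both libraries to a like degree, whereas Cdk5rap1 in the bleeding library was higher at 50 to 80% than at 0 to 5%. At 5 to 20% the list was higher in the PHZ library, at 578 CPM (556 to 601) against 450 CPM (413 to 488). Cdkal1 alone, the paralog that acts on a cytosolic tRNA, went from 72.0 and 88.2 CPM to 8.34 and 12.7 CPM.

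**Figure D2:**
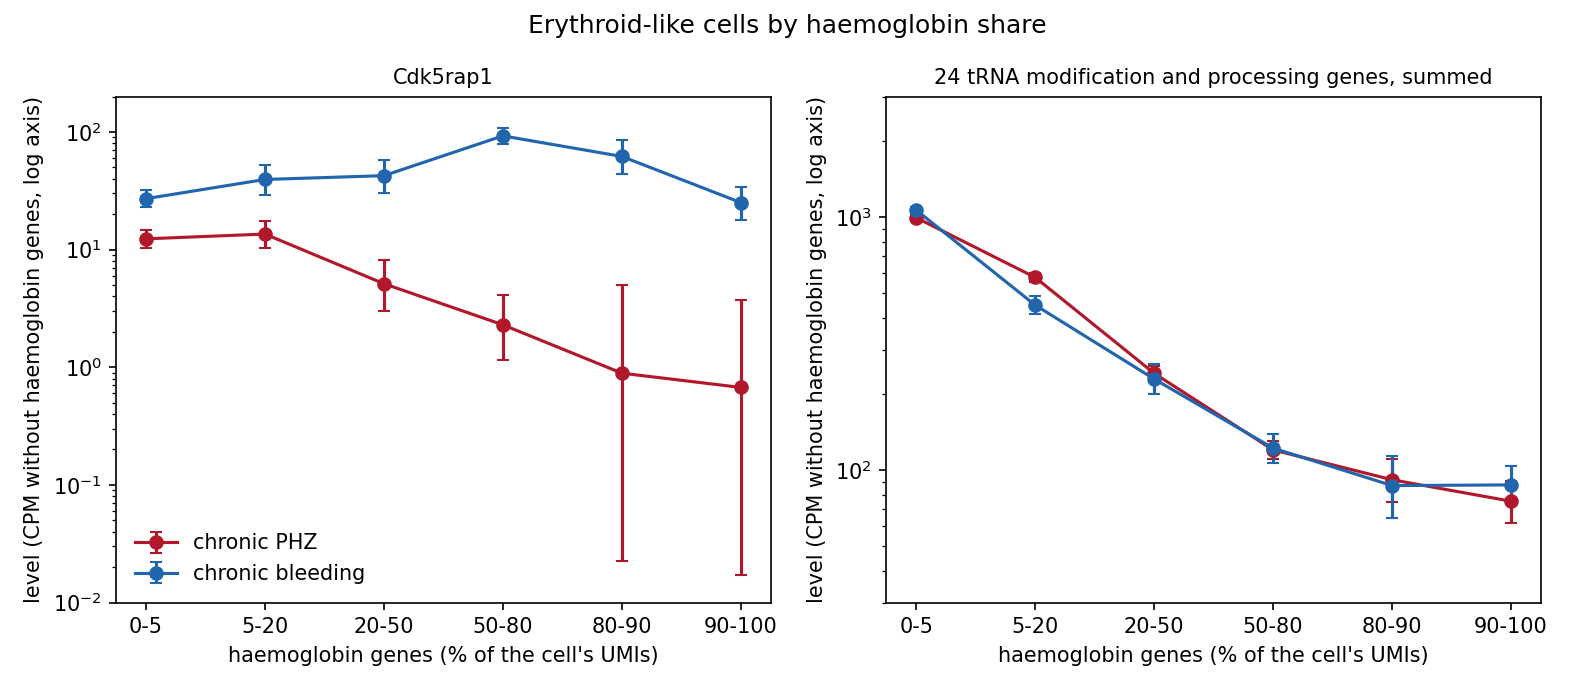
Level in CPM without haemoglobin genes (log axis) against the share of haemoglobin genes in the UMIs of each erythroid-like cell, for Cdk5rap1 (left) and for the sum of 24 tRNA modification and processing genes (right); points are 1 library each and bars are exact 95% Poisson intervals. Cdk5rap1 peaks at 92.6 CPM in the bleeding library and is at 2.29 CPM in the PHZ library at 50 to 80% haemoglobin. The summed list declines in both libraries up to that range, with 578 CPM in the PHZ and 450 CPM in the bleeding library at 5 to 20%.

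Single clusters gave the same direction with few exceptions. Of 34 clusters, 32 held cells of both libraries and at least 1 Cdk5rap1 UMI, and in 30 of these the PHZ level was lower. The interval of the ratio lay under 1 in 26 clusters. The PHZ level was the higher one in clusters 30 and 32, with 6 UMIs in 53 PHZ cells against 0 in 3 bleeding cells in B cell-like cluster 30, and with the few basophil or mast cell-like cells in cluster 32. The lowest ratios with a UMI in the PHZ library were found in erythroid-like clusters 4 and 13, whose median haemoglobin shares were 74.4% and 64.2%. Cluster 4 held 0.903 CPM against 125 CPM, from 2 UMIs in 563 cells and 119 UMIs in 285 cells. Cluster 13 held 1.97 CPM against 158 CPM, from 2 and 54 UMIs. The early progenitor-like cluster 15, with a median of 75020 UMIs per cell, held 166 of the 210 erythroid-like UMIs of the PHZ library.

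The gap was also present in barcodes that were not called cells. Barcodes with 1000 or more UMIs but under 300 genes, which held over 80% haemoglobin in 2545 of 2618 PHZ and 3000 of 3047 bleeding cases, gave 1 and 31 Cdk5rap1 UMIs. Their levels were 0.714 CPM (0.0181 to 3.98) and 16.3 CPM (11.1 to 23.1), a ratio of 0.0438 (0.00108 to 0.263). Barcodes of 10 to 99 UMIs, which are mostly droplets with free RNA, held 9.01 CPM (5.71 to 13.5) and 60.1 CPM (50.8 to 70.5), a ratio of 0.150 (0.0922 to 0.234). Over all cells the levels were 9.54 and 44.8 CPM, as given above. In the PHZ library the intervals of intermediate and late erythroid-like and of neutrophil-like cells lay under that of the free RNA. In the bleeding library those of B cell-like, dendritic cell-like, plasma cell-like, neutrophil-like, red pulp macrophage-like and early and late erythroid-like cells did. With this free RNA subtracted at an assumed 5% of the UMIs of each class, the ratio was 0.207 in erythroid-like, 0.306 in B cell-like, 0.331 in T cell-like, 0.118 in neutrophil-like and 0.135 in monocyte or macrophage-like cells. The true share of free RNA in the cells was not measured. Barcodes left out for over 10% mitochondrial UMIs had 22.1 CPM against 43.3 CPM, the ratio nearest to 1 among these tiers at 0.511 (0.294 to 0.872).

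**Figure D3:**
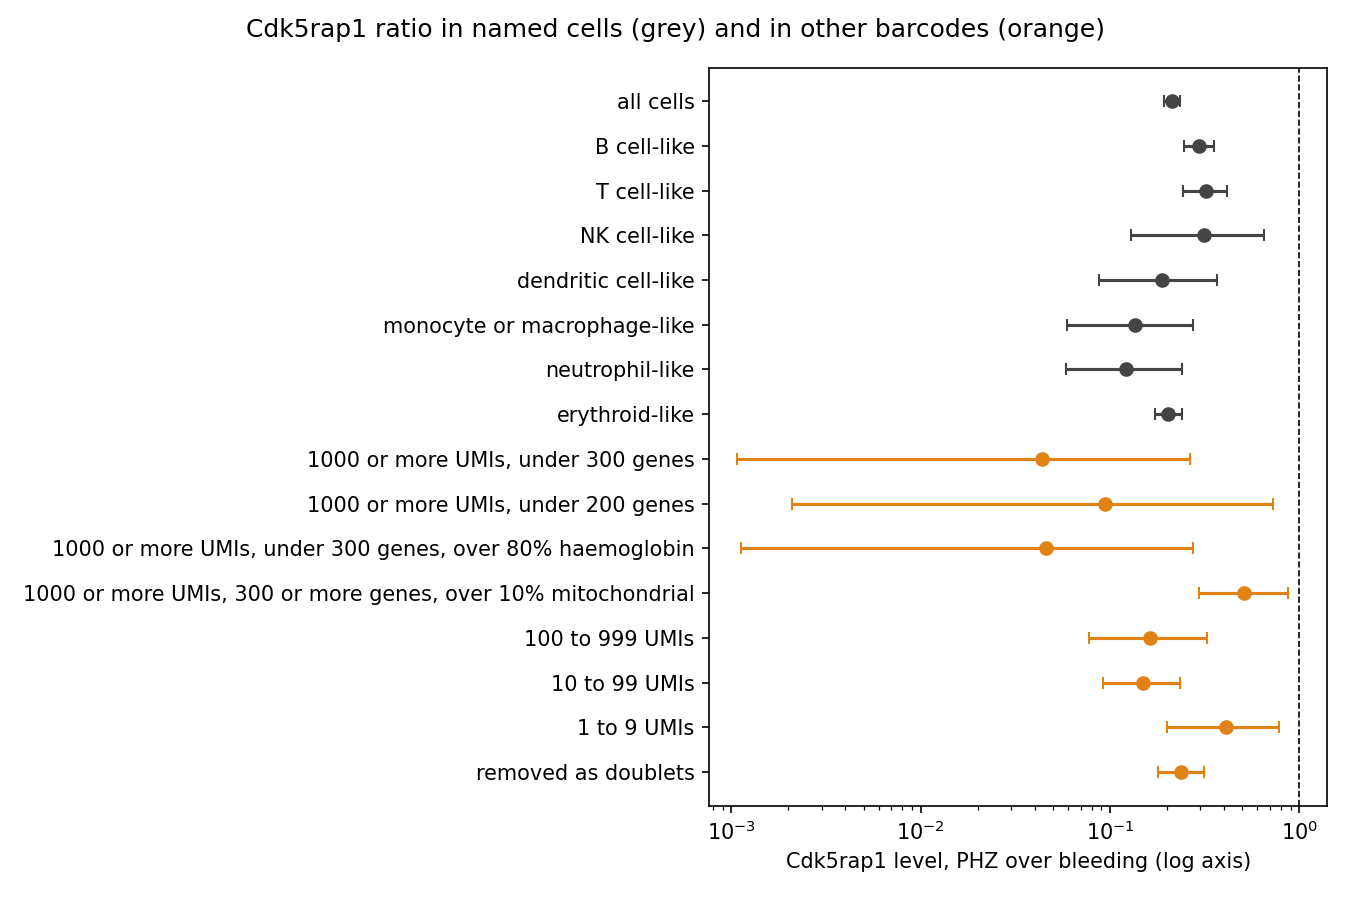
Cdk5rap1 level in the PHZ over the bleeding library (log axis) in all cells and named classes (grey) and in barcodes outside the analysed cells (orange); bars are exact conditional 95% intervals, and the dashed line marks equal levels. Every plotted ratio lies under 1, from 0.0438 in low-gene barcodes to 0.511 in barcodes with over 10% mitochondrial UMIs.

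Counted per cell, at least 1 Cdk5rap1 UMI was found in 5.58% (5.02 to 6.18) of cells after PHZ and in 22.6% (21.7 to 23.4) after bleeding. When each cell was thinned to 1000 UMIs without haemoglobin genes, leaving out 218 and 479 shallower cells, the shares were 0.628% (0.442 to 0.864) and 4.64% (4.20 to 5.11). In thinned B cell-like cells they were 1.04% and 3.75%, and in thinned erythroid-like cells 0.167% and 4.75%. Thinned to 500 UMIs, B cell-like cells gave 1.23% (0.744 to 1.92) and 2.11% (1.66 to 2.65), with overlapping intervals, and erythroid-like cells 0.0313% (0.000793 to 0.174) and 1.97% (1.44 to 2.61). Each thinning was 1 random draw. The draw to 500 UMIs put PHZ B cell-like cells at 26.0 CPM, against 13.9 CPM unthinned, so nothing is read from that overlap. PHZ erythroid-like cells came to 1.67 CPM at 1000 UMIs and 0.626 CPM at 500, against 8.45 CPM unthinned. These draws had 5 and 1 cells with a UMI. Bleeding erythroid-like cells came to 51.8 and 40.2 CPM, against 41.5 CPM unthinned. The size of the gap in thinned erythroid-like cells is therefore not read either. The difference was spread over many cells: in the bleeding library 1509 cells had 1 UMI, 350 had 2 and 161 had 3 or more, and in the PHZ library these numbers were 270, 45 and 26. The highest count in a cell was 8 in the PHZ and 7 in the bleeding library. No cell type here could be taken to lack the gene, so no background share was set beside these values, and the level of the free RNA given above takes its place.

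Few genes had such a pattern in all 5 large classes. Of 7760 genes with at least 20 UMIs over both libraries in the erythroid-like, B cell-like, T cell-like, neutrophil-like and monocyte or macrophage-like classes, 2 genes or 0.0258% had a ratio at or under 0.5 in all 5, and 0% had a ratio at or over 2 in all 5. They were Cdk5rap1, which the rule fixes, and Slc15a2, which encodes a proton-coupled peptide transporter and lies on chromosome 16. Slc15a2 had ratios of 0.314 in erythroid-like, 0.434 in B cell-like, 0.346 in T cell-like, 0.245 in neutrophil-like and 0.174 in monocyte or macrophage-like cells. The largest of the 5 ratios was 0.320 for Cdk5rap1 and 0.434 for Slc15a2. The next gene above the limit was Basp1 at 0.760, and the median over the 7760 genes was 1.30. As Cdk5rap1 was chosen on this contrast, nothing is read from its place. In neutrophil-like cells it passed the minimum of 20 UMIs mainly through the bleeding library, with 30 UMIs beside 13 in the PHZ library. The same held in monocyte or macrophage-like cells, with 60 beside 9. The neutrophil-like class had 43 Cdk5rap1 UMIs in all, so with a minimum of 50 UMIs per class neither gene could be compared and the count was 0 of 5717.

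**Figure D4:**
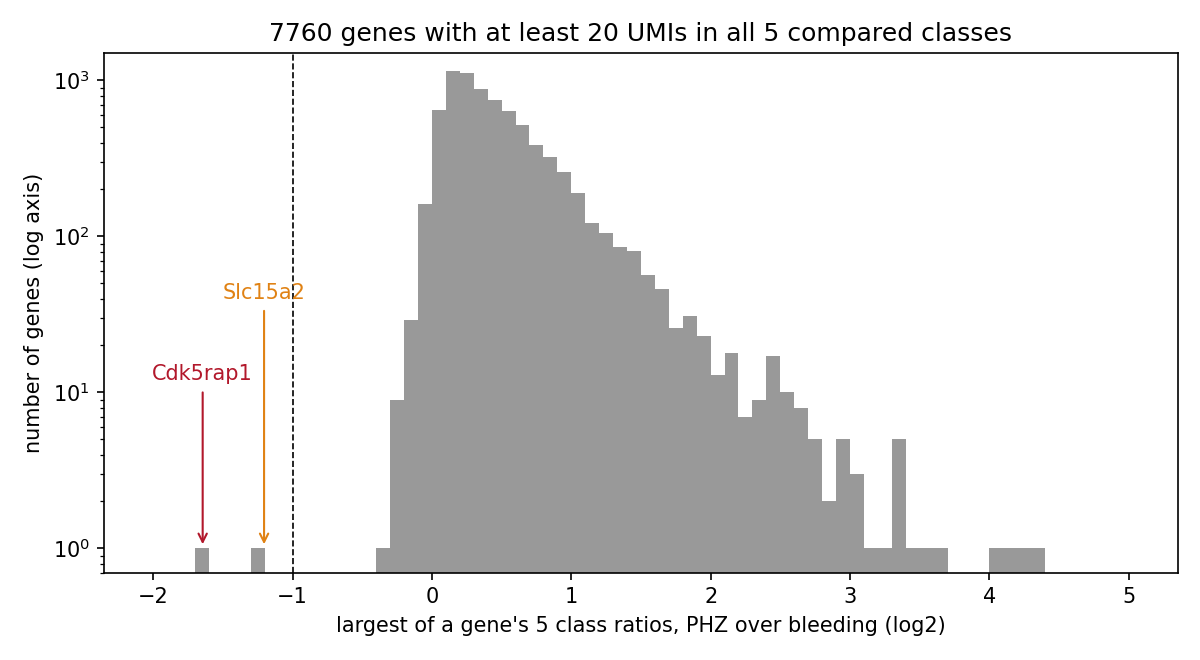
Histogram of 7760 genes by the largest of their 5 class ratios, PHZ over bleeding, on a log2 scale (vertical log axis: number of genes); the dashed line marks a ratio of 0.5. Cdk5rap1, chosen on this contrast, is at 0.320, Slc15a2 is at 0.434, and the lowest of the other genes, Basp1, is at 0.760.

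Slc15a2 was also the nearest gene by both measures of likeness. By the Euclidean distance between log2 ratios over the 5 classes it stood at 1.34, followed by Igkc at 2.04, Ighd at 2.08, H2-DMb2 at 2.20 and Gimap3 at 2.37. Those 4 genes are markers of B or T lymphocytes and had ratios near 1 in B cell-like cells (1.07, 0.984, 0.913 and 0.939), unlike Cdk5rap1. By the correlation of log2(CPM + 1) over 10 points, the 5 classes in each library, Slc15a2 had r = 0.900, Ergic1 0.824, Jund 0.809, Rfxank 0.792 and Rabl3 0.756. These points share 2 libraries and their depths, and the values are a description. Across haemoglobin shares Slc15a2 took another course than Cdk5rap1 in the PHZ library, with 5.04 CPM at 0 to 5% and 60.7 CPM at 50 to 80%, against 8.59 and 234 CPM in the bleeding library.

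On chromosome 2 the genes within 500 kb that were compared had ratios nearer to 1 than Cdk5rap1 in erythroid-like cells. Cbfa2t2, a transcriptional corepressor, had a ratio of 0.900 (0.794 to 1.02). The cell cycle factor E2f1 had 0.975 (0.870 to 1.09), the peroxisomal membrane protein gene Pxmp4 had 0.904 (0.780 to 1.05) and Necab3 had 1.12 (0.645 to 2.03). Zfp341, a zinc finger protein gene, had 1.49 (1.24 to 1.80). On the centromere side, where the genes are mostly of the Bpif family of secreted proteins, none reached 20 UMIs in these cells. Of 29 annotated neighbours considered 10 could be compared, their ratios lay between 0.900 and 1.49, and 0 were at or under 0.5. Of all genes in this class 7.41% were at or under 0.5, so a count of 0 among 10 is near the background. In late erythroid-like cells 6 could be compared, with ratios of 0.444 to 4.61. There 1 was at or under 0.5 and 2 were at or over 2, where 15.1% and 7.85% of all genes were. In B cell-like cells 8 could be compared, with ratios of 0.948 to 1.36. In monocyte or macrophage-like cells 7 could be compared, with ratios of 0.505 to 1.74, the lowest that of Cbfa2t2 (0.354 to 0.714).

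**Figure D5:**
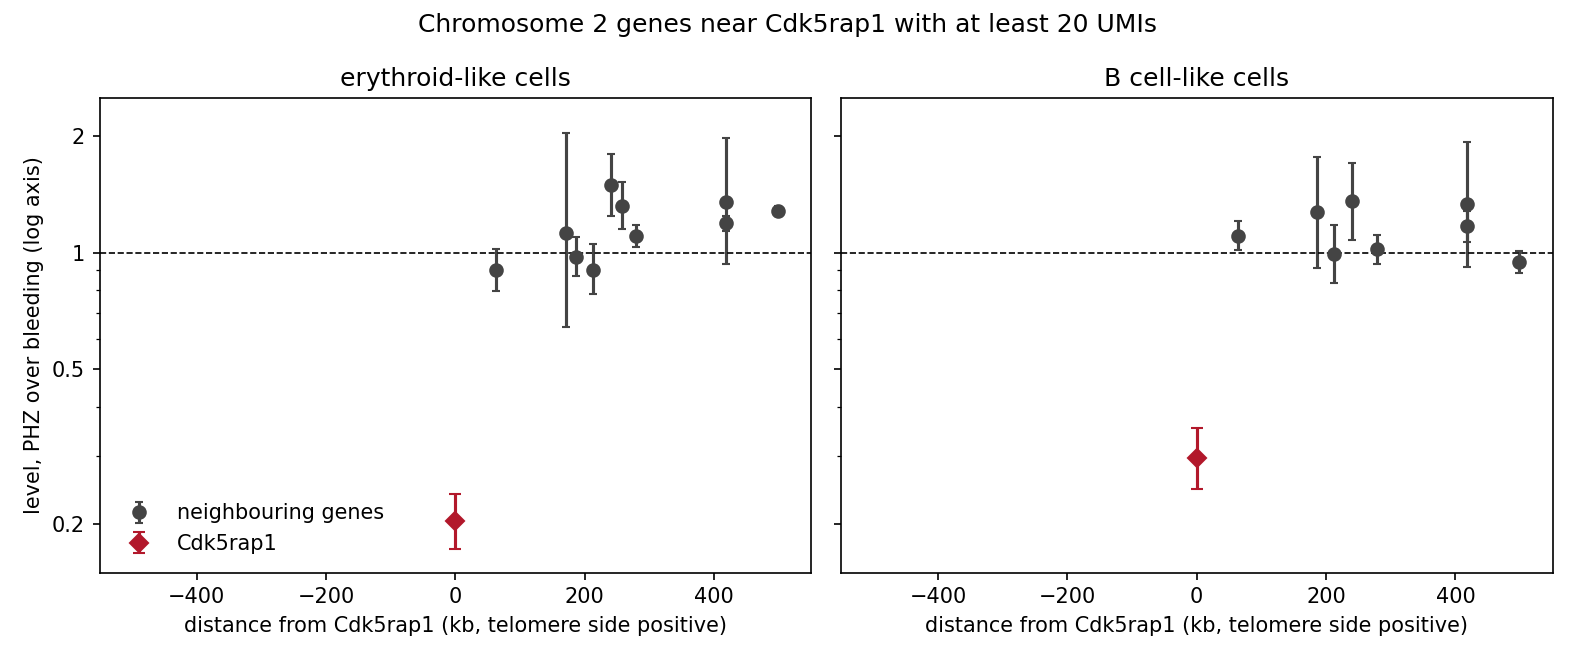
Level in the PHZ over the bleeding library (log axis) against distance from Cdk5rap1 in kb for chromosome 2 genes with at least 20 UMIs, in erythroid-like (left) and B cell-like cells (right); bars are exact conditional 95% intervals. The neighbours lie at 0.900 to 1.49 and at 0.948 to 1.36, and Cdk5rap1 at 0.203 and 0.296.

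The other genes of the tRNA pathway had ratios nearer to 1 than Cdk5rap1 in erythroid-like cells. There 24 members of the list could be compared, of which 10 were over and 14 under a ratio of 1, and 0 were beyond 2-fold in either direction. Of all genes 7.41% were at or under 0.5 and 1.90% at or over 2, so a count of 0 among 24 is near the background. Their median log2 ratio was -0.04, against 0.00 over all genes. Trit1, which makes the substrate of Cdk5rap1, held 10.7 and 13.1 CPM, a ratio of 0.817 (0.667 to 1.004), and Cdkal1 held 43.7 and 52.9 CPM, a ratio of 0.826 (0.747 to 0.913). Nsun2, a tRNA cytosine methyltransferase, was at 0.799 (0.745 to 0.858), Hsd17b10, a subunit of the mitochondrial tRNA-processing complex, at 1.06 (0.963 to 1.18), and the CCA-adding enzyme Trnt1 at 0.953 (0.856 to 1.06). In B cell-like cells 8 members were over and 16 under 1, and in T cell-like cells 12 and 12, again with 0 beyond 2-fold, where 3.05% and 2% of all genes were at or over 2. In neutrophil-like cells 3 of 15 were at or over 2, where 8.38% of all genes were, and in monocyte or macrophage-like cells 2 of 21 were at or under 0.5 and 0 at or over 2, where 12.6% and 4.94% of all genes were.

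Among Cdk5 and the proteins named for binding its activator, Cdk5rap2, a centrosome protein, had a ratio of 1.06 (0.971 to 1.16) in erythroid-like cells and Cdk5rap3 had 0.946 (0.805 to 1.11). Cdk5 itself had 0.782 (0.547 to 1.13) and its activator Cdk5r1 0.817 (0.466 to 1.47). In monocyte or macrophage-like cells Cdk5rap2 was at 0.251 (0.140 to 0.428), in a class whose make-up differs between the libraries as given above.

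Of 18 genes of iron-sulphur cluster assembly compared in erythroid-like cells, 14 were under 1 and 4 over it, and 0 were beyond 2-fold, beside the same 7.41% and 1.90% of all genes. Their median log2 ratio was -0.14, against 0.00 over all genes. Glrx5, a glutaredoxin that carries clusters for haem synthesis in red cells, was at 0.832 (0.819 to 0.845). The scaffold gene Iscu was at 0.643 (0.621 to 0.666), Isca1 at 0.692 (0.672 to 0.713) and Bola3 at 1.003 (0.971 to 1.04). In B cell-like cells this list was split evenly, with 9 genes over and 9 under 1. In neutrophil-like cells 4 of 16 were at or over 2 and 0 at or under 0.5, beside 8.38% and 3.48% of all genes. In monocyte or macrophage-like cells 4 of 17 were at or under 0.5, beside 12.6% of all genes, with Isca1 at 0.0967, Glrx5 at 0.171 and Bola3 at 0.289, and the larger red pulp macrophage-like cluster there had a median haemoglobin share of 66.1%.

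The genes of the machinery that uses mitochondrial tRNAs had median ratios near 1 in erythroid-like cells. The 13 proteins encoded by the mitochondrial genome had a median log2 ratio of -0.07, with 3 over and 10 under 1, and the 78 mitochondrial ribosomal protein genes had one of 0.00, with 39 over and 39 under. The 22 genes listed for mitochondrial aminoacyl-tRNA synthesis, most of which encode synthetases that load tRNAs with amino acids, were split into 11 and 11. The 13 translation factor genes were split into 7 and 6. In neutrophil-like cells 62 of 74 mitochondrial ribosomal protein genes were over 1, with a median of 0.46, and in monocyte or macrophage-like cells 71 of 78, with a median of 0.47. The medians over all genes in these classes were 0.02 and 0.01. All 13 mitochondrially encoded genes were over 1 in neutrophil-like cells and under 1 in monocyte or macrophage-like cells, with medians of 0.42 and -0.50. Cdk5rap1 was lower in the PHZ library in both classes. The make-up of the monocyte or macrophage-like class differs between the libraries, as given above. Within monocyte-like cells alone, mitochondrial UMIs were 2.33% of the UMIs without haemoglobin genes in the PHZ and 2.35% in the bleeding library. In red pulp macrophage-like cells they were 3.28% and 4.45%.

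Genes that mark differences between mice were read beside Cdk5rap1. The Y-linked gene Ddx3y stood at 76.1 CPM in the PHZ and 83.9 CPM in the bleeding library over all cells, Uty at 77.9 and 96.5 CPM, and Xist, the transcript of the inactive X chromosome, had 6 and 1 UMIs. These values show RNA of male cells in both libraries. Of genes known to differ between C57BL/6 substrains, Nnt held 1.97 and 2.85 CPM over all cells, a ratio of 0.690 (0.532 to 0.890), and in B cell-like cells 4.58 and 4.03 CPM, a ratio of 1.14 (0.778 to 1.64). Wdfy1 was at 0.893 (0.830 to 0.961), Ide at 1.12 (1.03 to 1.20) and Cyfip2 at 0.729 (0.706 to 0.753) over all cells. The shares of the cell classes differ between the libraries, so values over all cells do not compare like cells. In B cell-like cells the ratios were 1.17 for Wdfy1, 0.975 for Ide, 1.215 for Cyfip2 and 1.01 for Uty. In T cell-like cells they were 0.8385, 1.14, 1.005 and 1.02, and in monocyte or macrophage-like cells 1.31, 1.56, 1.28 and 0.643. Nlrp12, which was found mainly in neutrophil-like cells, was at 2.78 (2.31 to 3.37) over all cells and 0.587 (0.485 to 0.712) within that class, and Entpd4 and Entpd4b are listed at 0 in both libraries. The part of the mice's genetic or epigenetic background in the Cdk5rap1 difference was not tested.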

How the data were processed

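The data are droplet-based 3′ single-cell RNA libraries of mouse spleen, 1 per group. The authors deposited raw counts (UMIs of each gene in each barcode), empty droplets included. Per the submitters' processing notes, reads were counted with Cell Ranger 7.0.0 on build mm10; per the file headers, the matrices name version 4. The annotation and the handling of intronic reads are not given in the sources used here. Cdk5rap1, the gene lists and the classes were chosen with earlier results of these data known.

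Cells had at least 1000 UMIs, 300 genes and at most 10% mitochondrial UMIs. Scrublet (scanpy 1.11.5) scored doublets, and the highest 0.8% per 1000 cells, 332 and 754, were removed. Leiden clusters (resolution 1, leidenalg 0.10.2) were named by fixed markers at least 2-fold over the rest and seen in at least 25% of their cells; at least 3 markers were needed. This naming rule was set after the data were seen. UMIs were summed per class and scaled without haemoglobin genes. Intervals of levels are exact Poisson, of ratios exact conditional and of shares Clopper-Pearson, all 95% (scipy 1.17.1); the difference of levels combines the Poisson limits. With 0 UMIs the limit is 3 counts over the group. Ratios were computed for genes with at least 20 UMIs over both libraries; the interval calculation was checked on simulated data. Coordinates and transcripts are from GENCODE M21.

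Named from each list were the 4 members with the most UMIs, and any with an interval beyond 2-fold, among those with at least 50 UMIs in the class; of the neighbours, the nearest 5 on each side with 20 UMIs in erythroid-like cells; and the first 5 genes by each measure of likeness. 1 gene is not reported here. Trit1 and Cdkal1 are named for their roles. Alternatives covered the denominator, scaling, cell filters, doublets, resolution, single cells and free RNA.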

Additional observations from a re-analysis of the deposited data

How the results depend on the processing

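No paired analysis was possible because each group had 1 library. The ratio of Cdk5rap1 stayed under 1 under all 50 alternatives run for the 5 large classes, between 0.041 and 0.331, and 48 of these lay within the main interval. Of those 48, 2 moved by over 1.5 times: neutrophil-like cells from 0.122 to 0.0582 under equal cell weights, and monocyte or macrophage-like cells from 0.136 to 0.218 with haemoglobin UMIs in the denominator. In erythroid-like cells it moved from 0.203 to 0.273 when haemoglobin UMIs were counted in the denominator, and to 0.041 under equal cell weights, which gives the many mature cells the weight of early ones. For erythroid stages, an addition made after the data were seen, early progenitor-like cells moved from 0.464 to 0.192 under equal cell weights, and late cells gave no value without their 3 highest cells or with free RNA subtracted. The ratio at 50 to 80% haemoglobin lay between 0.0181 and 0.0250 under 5 other settings, an addition of the same kind. The ratio in barcodes of low gene number was 0.0438 under 300 genes and 0.0937 under 200. With a minimum of 50 genes, several haemoglobin-rich clusters could not be named. The count of genes at or under 0.5 in all 5 classes was 2, and it was 0 with at least 50 UMIs, where Cdk5rap1 and Slc15a2 were not compared, 17 with at least 1 UMI and 2 at 1.5-fold. Of 35 list medians, 30 moved by at most 0.1 with at least 50 UMIs per gene. Classes with few UMIs, such as neutrophil-like cells, have wide intervals.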
